A study of Rattus norvegicus with 16 samples.

Results

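The circadian clock genes described here are Clock, Arntl, Per1, Per2, Per3, Cry1, Cry2, Nr1d1, Nr1d2 and Dbp. They were found by their symbols in the table of counts, and all 10 were present among its 32623 genes, with Arntl, also called Bmal1, under the symbol Arntl. The cell-autonomous clock of mammals is a loop of transcription and translation. CLOCK and BMAL1 form a dimer that binds E-boxes and activates the Per and Cry genes, and the PER and CRY proteins then repress that dimer. The nuclear receptors REV-ERB alpha and beta, encoded by Nr1d1 and Nr1d2, repress Arntl, and DBP is an output of the loop that activates genes with D-boxes. In the kidney, the clock is known for the daily rhythm of sodium, potassium and water excretion.

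RNA of 2 cell lines from normal rat kidney was sequenced in 16 libraries after 48 h of co-culture at pH 7.4 or pH 6.0, with 4 libraries for each cell line and pH. NRK-52E, an epithelial line used as a model of the proximal tubule, grew on filter inserts above NRK-49F, a fibroblast line, so that both lines shared the medium and each library came from 1 line. The labels name no genetic change and no further agent in either line, and cells of all 4 groups had been kept without serum before the pH was set. The pH values are those of the study's methods, since the sample titles give them as whole numbers. All cells were harvested at 1 time point, so that a level, but no rhythm, phase or amplitude, can be read from these data. The libraries are called N1 to N16, and values of single libraries are listed in the order N1, N2, N5, N6 (NRK-52E, pH 7.4), N3, N4, N7, N8 (NRK-52E, pH 6.0), N9, N10, N13, N14 (NRK-49F, pH 7.4) and N11, N12, N15, N16 (NRK-49F, pH 6.0). Between 16201084 and 34784862 fragments were counted per library, of which 6644 to 17518 belonged to the 10 clock genes. Nothing in the labels says whether the libraries of a group came from separate cultures, so the p-values measure the spread between these libraries.

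The cell line labels were compared with marker genes. Levels are given in FPM, the fragments of a gene per 1000000 counted fragments after TMM scaling of the libraries, as mean ± SD of 4 libraries. Of 10 epithelial markers, NRK-52E cells at pH 7.4 had Krt8 at 430.4 ± 32 FPM, Ocln at 41.2 ± 2.04 FPM and Krt7 at 36.7 ± 4.69 FPM, while Epcam, Krt18, Cldn4, Cldn7 and Esrp1 were at or near 0 in all 4 groups. Ocln and Cdh1 were at 0 in NRK-49F cells at pH 7.4, but Cdh1 was low in NRK-52E cells too, at 1.33 to 1.87 FPM. Krt19 overlapped between the lines at pH 7.4, with 1.69 to 3.76 FPM in NRK-52E and 1.78 to 2.78 FPM in NRK-49F cells. Krt8 was also high in NRK-49F cells, at 848 ± 70.4 FPM. Of 10 fibroblast markers, NRK-49F cells had Col1a1 at 6205 ± 410 FPM, Pdgfra at 392 ± 54.7 FPM, Twist1 at 94.7 ± 12 FPM and Prrx1 at 64.9 ± 11.8 FPM, whereas Pdgfra and Prrx1 were near 0 in NRK-52E cells and Thy1 was at 0 in both lines. Pdgfrb and Lum were also higher in NRK-49F cells at pH 7.4. Col3a1, a fibrillar collagen, was at 6221 ± 95 FPM in NRK-52E cells. Col5a1 overlapped between the lines at pH 7.4, with 338 to 420 FPM in NRK-52E and 220 to 488 FPM in NRK-49F cells. Dcn was low in both, at 0.615 to 0.796 FPM in NRK-52E and 0.253 to 0.593 FPM in NRK-49F cells. The 5 proximal tubule markers Lrp2, Cubn, Slc34a1, Slc5a2 and Hnf4a summed to between 0.673 and 2.53 FPM in NRK-52E libraries, so that the defining genes of the proximal tubule were nearly absent. At pH 7.4 the sums reached higher in the fibroblast line, with 2.50 to 4.65 FPM against 1.93 to 2.53 FPM in NRK-52E cells, and 1 marker, Cubn, was called higher there. In the comparisons of pH, 2 of the 5 were tested, and 1 was called lower at pH 6.0 in each line.

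The marker sums also moved with pH. In NRK-52E cells, 5 epithelial markers were tested and all 5 were called lower at pH 6.0, and of 6 fibroblast markers tested 4 were called lower, where 28.5% of all genes tested were called lower. In NRK-49F cells, 1 of 2 epithelial and 3 of 8 fibroblast markers tested were called, all lower, beside 19.4% of all genes. The epithelial markers of NRK-52E cells summed to 542, 502, 470 and 536 FPM at pH 7.4 and to 377, 311, 347 and 333 FPM at pH 6.0, and the sums of the pH groups did not overlap. The fibroblast markers of NRK-52E cells summed to 6737, 6776, 6635 and 6503 FPM at pH 7.4 and to 3410, 3295, 2873 and 1992 FPM at pH 6.0, again without overlap. In NRK-49F cells, the epithelial markers summed to 825, 786, 949 and 842 FPM at pH 7.4 and to 207, 221, 204 and 199 FPM at pH 6.0. The fibroblast markers of NRK-49F cells summed to 7578, 7990, 6878 and 8160 FPM at pH 7.4 and to 9758, 9110, 9789 and 8087 FPM at pH 6.0, and these groups overlapped. Krt8 made up most of the epithelial sums, Col3a1 most of the fibroblast sums of NRK-52E cells, and Col1a1 most of those of NRK-49F cells. In NRK-49F cells Col1a1 had 5644 to 6558 FPM at pH 7.4 and 6961 to 8995 FPM at pH 6.0. Col3a1 went the other way there, from 399 to 612 FPM at pH 7.4 to 31.6 to 87.9 FPM at pH 6.0. The part of these shifts in the results on clock genes was not tested. In bulk RNA, fewer cells of a type and less RNA per cell cannot be told apart. The study's methods describe a membrane whose pore size kept the lines apart, and separate processing of each line. They call any remaining contamination very low and unlikely to change the results.

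Library N8, an NRK-52E library at pH 6.0, stood apart from N3, N4 and N7 of its group. It had the lowest level of 9 of the 10 clock genes in its group and the highest level of the remaining gene, Dbp. Each library at pH 6.0 was placed over the 4436 genes called in NRK-52E with a change of at least 1 on the log2 scale. The scale ran from the mean of the pH 7.4 libraries (0) to the mean of the other pH 6.0 libraries (1). The median place was 0.875 for N8, against 0.993 to 1.10 for the other libraries. N8 also had the lowest sum of fibroblast markers, at 1992 FPM. It was kept, and the pH effects on the clock genes in NRK-52E cells are given with and without it. Because N8 was set apart partly by the levels of these same genes, leaving it out moves their values in a known direction. The values without N8 are thus a description and no independent support for the calls. For genes of the lists, values without N8 are not given.

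**Figure D1:**
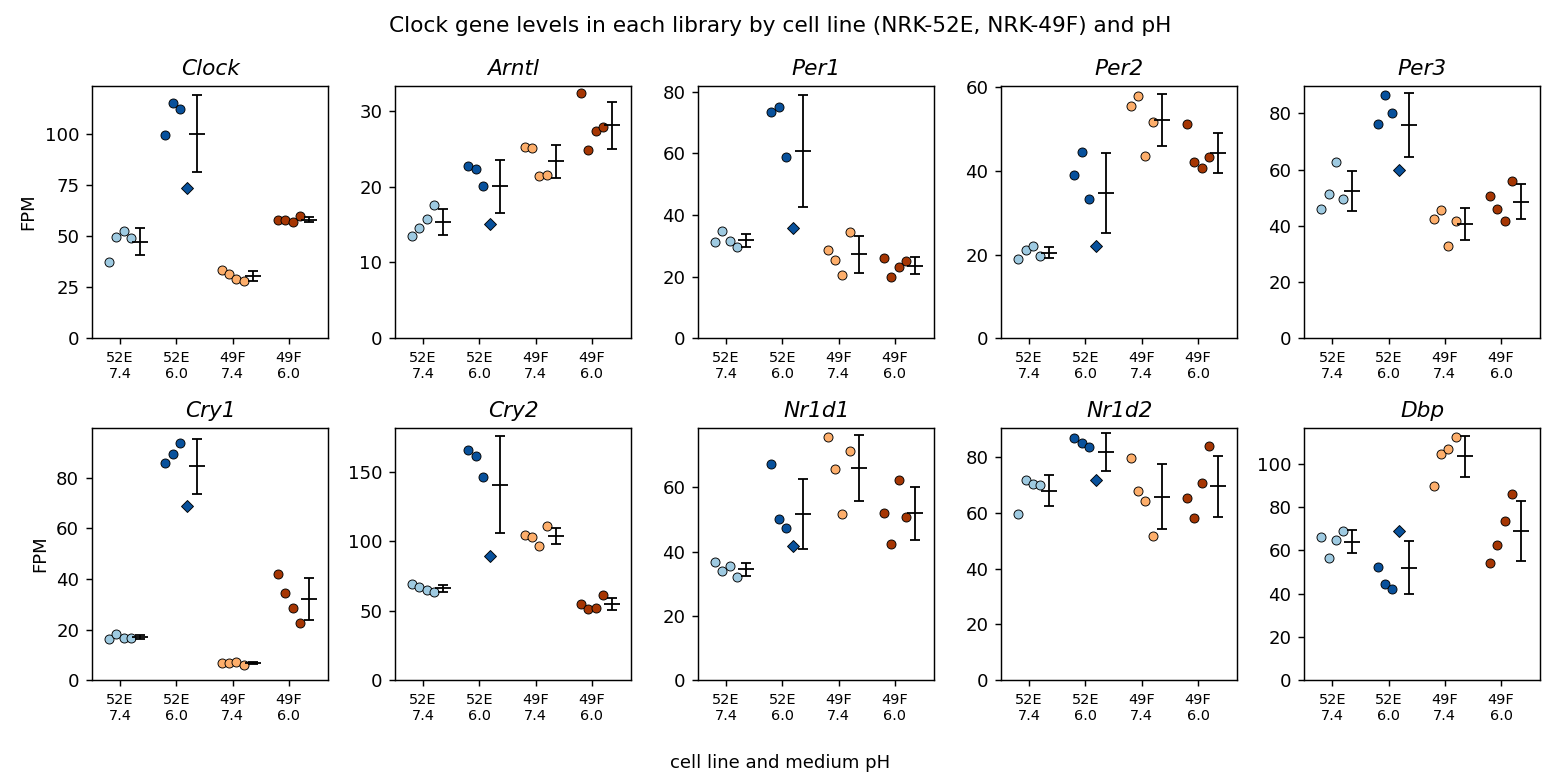
Levels of the 10 clock genes in each library, in FPM on a linear axis from 0, by cell line (52E for NRK-52E, 49F for NRK-49F) and pH. Points are single libraries, the diamond is N8, and the bar beside each group is the mean with the SD of 4 libraries; Cry1 lies between 69.0 and 93.8 FPM in NRK-52E cells at pH 6.0 and between 16.4 and 18.1 FPM at pH 7.4.

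Differences were tested with edgeR and DESeq2 over all genes that passed a filter on low counts, and a gene is called where the false discovery rate (FDR) was below 0.01 in both tools with the same sign. All 10 clock genes passed the filter in every comparison. The first question is which of them changed with acidosis in each line. In NRK-52E cells, 7 of 10 were called, all 7 higher at pH 6.0. Over all 13735 genes tested, 56.7% were called, 28.2% higher and 28.5% lower. The count of 7 in either direction is thus close to the background, and the count of 7 higher stands beside 28.2%; no test was made over the 10 genes. Their median log2 fold change was 0.65 against 0.00 for all genes. Without N8, all 10 were called, 9 higher and 1 lower, whereas 4 were called without N1, N2 or N6. The calls over all genes moved as well, from 7793 to 8914 without N8 and to 7286, 6789 and 6821 without N1, N2 and N6. Within the libraries whose names carry the number 21, which are 2 a group, 6 clock genes were called, all higher, and 5244 of all genes. Within number 22, also 2 a group and with N8 among them, Cry1 alone was called, and 2820 of all genes. The log2 fold changes within number 22 were 0.84 for Clock, 0.85 for Cry2, 0.61 for Per1, 0.39 for Per2, 0.38 for Nr1d1 and 0.30 for Per3. Their FDR was 0.0247 to 0.272. With libraries scaled by total counts, which shifted the median of all genes by −0.208, Per2, Per3 and Nr1d1 were no longer called and Dbp was called lower. Relative to the shifted median, these 3 genes had log2 fold changes of 0.74, 0.51 and 0.55. In NRK-49F cells, 4 of 10 were called, 2 higher and 2 lower, and of all 13339 genes tested 37.8% were called, 18.4% higher and 19.4% lower. The count in NRK-49F cells is close to the background. The median log2 fold change there was −0.08 for the clock genes and −0.00 for all genes.

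Clock (ENSRNOG00000002175), which encodes the partner of BMAL1 in the activating dimer, had 37.7, 49.9, 52.9 and 49.5 FPM in the NRK-52E libraries at pH 7.4 and 99.7, 115, 112 and 73.8 FPM at pH 6.0, in the order N3, N4, N7 and N8. In NRK-49F cells it had 33.4, 31.7, 28.9 and 28.2 FPM at pH 7.4 and 57.8, 58.3, 57.0 and 59.8 FPM at pH 6.0. In both lines every library at pH 6.0 was above every library at pH 7.4, and the 4 NRK-49F libraries at pH 6.0 lay close together. On the log2 scale Clock rose by 1.05 ± 0.151 (SE) in NRK-52E cells (FDR 0.000106, edgeR) and by 0.92 ± 0.0925 in NRK-49F cells (FDR 8.01e-06). Without N8, the value in NRK-52E cells was 1.17 ± 0.115 (FDR 5.27e-06). The pH effects of the lines differed by 0.13 ± 0.181, which was not called (FDR 0.576, 95% interval −0.25 to 0.51). The 4 groups kept apart in the order NRK-49F at pH 7.4, NRK-52E at pH 7.4, NRK-49F at pH 6.0 and NRK-52E at pH 6.0, with no overlap between neighbours.

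Arntl (ENSRNOG00000014448), which encodes BMAL1, was not called with pH in either line. It had 13.493, 14.54, 15.7 and 17.6 FPM in NRK-52E cells at pH 7.4 and 22.7, 22.3, 20.1 and 15 FPM at pH 6.0. N3, N4 and N7 lay above all libraries at pH 7.4, and N8 lay among them. The log2 fold change was 0.36 ± 0.155 (FDR 0.0573), and without N8 it was 0.47 ± 0.121 and called (FDR 0.00466). In NRK-49F cells, Arntl had 25.2, 25.1, 21.3 and 21.6 FPM at pH 7.4 and 32.3, 24.9, 27.3 and 27.8 FPM at pH 6.0, with overlap through N12, and the log2 fold change was 0.25 ± 0.117 (FDR 0.0851).

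Cry1 (ENSRNOG00000006622), a cryptochrome that represses the CLOCK and BMAL1 dimer, had the largest log2 fold change of the 10 genes in each line. In NRK-52E cells it had 16.4, 18.1, 16.46 and 16.8 FPM at pH 7.4 and 85.6, 89.4, 93.8 and 69.0 FPM at pH 6.0. In NRK-49F cells it had 6.80, 6.67, 7.05 and 6.13 FPM at pH 7.4 and 41.8, 34.6, 28.6 and 22.6 FPM at pH 6.0. The pH groups were far apart in both lines, and the spread at pH 6.0 was wide in NRK-49F cells, with N11 the highest and N16 the lowest library. On the log2 scale Cry1 rose by 2.30 ± 0.109 in NRK-52E cells (FDR 8.32e-08), a ratio of means of 4.99, and without N8 by 2.38 ± 0.0779 (FDR 3.7e-09). In NRK-49F cells it rose by 2.25 ± 0.187 (FDR 1.78e-06), a ratio of 4.79. A larger rise was seen in 2.82% of the genes tested in NRK-52E cells and in 1.04% of those tested in NRK-49F cells. The difference between the lines' pH effects was 0.04 ± 0.218 and was not called (FDR 0.905, 95% interval −0.42 to 0.50). The library names of NRK-52E carry a further number, 21 or 22, and Cry1 was the only one of the 10 genes called both among the libraries with 21 and among those with 22.

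Cry2 (ENSRNOG00000007478), the second cryptochrome, changed in opposite directions. It had 69.5, 67.3, 65.1 and 63.7 FPM in NRK-52E cells at pH 7.4 and 166, 161, 146 and 89.8 FPM at pH 6.0, so that N8 was far below its group but above all libraries at pH 7.4. In NRK-49F cells it had 105, 103, 96.8 and 111 FPM at pH 7.4 and 55.0, 51.5, 51.7 and 61.5 FPM at pH 6.0, again without overlap. The log2 fold change was 1.06 ± 0.161 in NRK-52E cells (FDR 0.000159), and 1.22 ± 0.0741 without N8 (FDR 1.52e-07). In NRK-49F cells Cry2 fell by 0.93 ± 0.0896 on the log2 scale (FDR 5.37e-06). The pH effects of the lines differed by 1.99 ± 0.197 (FDR 2.85e-07), and by 2.15 ± 0.118 without N8 (FDR 2.54e-10). Of the genes tested for this difference, 4.81% had a larger one in the same direction.

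Per1 (ENSRNOG00000007387), the period gene known to respond early to outside signals, had 31.2, 34.9, 31.5 and 29.5 FPM in NRK-52E cells at pH 7.4 and 73.4, 75.2, 58.8 and 36 FPM at pH 6.0. N8 lay just above the highest library at pH 7.4, and the other 3 libraries were well above it. In NRK-49F cells Per1 had 28.8, 25.3, 20.4 and 34.4 FPM at pH 7.4 and 26.1, 20, 23.1 and 25 FPM at pH 6.0, with wide overlap. Per1 rose in NRK-52E cells by 0.91 ± 0.195 on the log2 scale (FDR 0.00163), and by 1.09 ± 0.105 without N8 (FDR 4.37e-06). In NRK-49F cells the value was −0.22 ± 0.149 and not called (FDR 0.231). The difference between the lines was 1.13 ± 0.267 (FDR 0.0019).

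Per2 (ENSRNOG00000020254), a period gene that together with Per1 sustains the rhythm, had 19, 21, 21.9 and 19.7 FPM in NRK-52E cells at pH 7.4 and 39.0, 44.4, 33.2 and 22.1 FPM at pH 6.0. As for Per1, N8 lay only just above the pH 7.4 libraries. In NRK-49F cells Per2 had 55.4, 57.7, 43.5 and 51.6 FPM at pH 7.4 and 51.1, 42.0, 40.6 and 43.2 FPM at pH 6.0, and the groups overlapped. The log2 fold change was 0.74 ± 0.184 in NRK-52E cells (FDR 0.00417), or 0.90 ± 0.114 without N8 (FDR 3.66e-05), and −0.25 ± 0.115 in NRK-49F cells (FDR 0.0862). The pH effects differed by 0.98 ± 0.226 (FDR 0.00158). The call in NRK-52E cells was lost when any 1 of N1, N2, N3, N4, N5 and N6 was left out, with log2 fold changes of 0.59 to 0.75 and FDR of 0.0103 to 0.0182.

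Per3 (ENSRNOG00000018413), a period gene whose loss affects the core loop little, had 45.9, 51.3, 62.6 and 49.6 FPM in NRK-52E cells at pH 7.4 and 76.3, 86.5, 80.1 and 59.9 FPM at pH 6.0, and only N5 and N8 crossed. The log2 fold change was 0.51 ± 0.131 (FDR 0.0051), or 0.60 ± 0.108 without N8 (FDR 0.000475), and the call was lost without N1, N2, N3, N4, N6 or N7, at 0.43 to 0.50 with FDR of 0.0146 to 0.0257. In NRK-49F cells Per3 had 32.7 to 45.5 FPM at pH 7.4 and 41.6 to 56.1 FPM at pH 6.0, with a log2 fold change of 0.24 ± 0.126 (FDR 0.12).

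Nr1d1 (ENSRNOG00000009329), which encodes REV-ERB alpha, had 36.6, 34.0, 35.6 and 32.0 FPM in NRK-52E cells at pH 7.4 and 67.2, 50.1, 47.3 and 41.8 FPM at pH 6.0. The groups did not overlap, and N3 was the highest. In NRK-49F cells it had 75.6, 65.6, 51.8 and 71.2 FPM at pH 7.4 and 52, 42.4, 62.4 and 50.8 FPM at pH 6.0, and N11 and N15 at pH 6.0 lay above N13 at pH 7.4. Nr1d1 rose in NRK-52E cells by 0.56 ± 0.142 on the log2 scale (FDR 0.00472), or 0.64 ± 0.126 without N8 (FDR 0.000886), and the call was lost without N1, N2, N5 or N6, at 0.50 to 0.58 with FDR of 0.0106 to 0.0241, and within numbers 21, at 0.69 ± 0.177 (FDR 0.0146), and 22, at 0.38 ± 0.17 (FDR 0.115), with 2 libraries a group. In NRK-49F cells the value was −0.36 ± 0.13 and not called (FDR 0.0342). It was called, and lower, without N13, at −0.45 ± 0.116 (FDR 0.00621), and within number 20, at −0.57 ± 0.112 (FDR 0.00144), but was −0.14 ± 0.203 within number 21 (FDR 0.629). The pH effects differed by 0.91 ± 0.21 (FDR 0.00158). In RefSeq's gene table Nr1d1 overlaps Thra, the thyroid hormone receptor alpha gene, and the counting options given in the study's methods include none for the strand, which by default means counting without regard to it. Thra had 133 ± 2.34 FPM in NRK-52E cells at pH 7.4 and 47.0 ± 3.19 FPM at pH 6.0, and 126 ± 12.6 and 58.0 ± 4.48 FPM in NRK-49F cells. Whether fragments in the overlap were added to or lost from the counts of Nr1d1 was not tested.

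Nr1d2 (ENSRNOG00000046912), which encodes REV-ERB beta, was not called with pH in either line. In NRK-52E cells it had 59.8 to 71.7 FPM at pH 7.4 and 71.7 to 86.9 FPM at pH 6.0, with a log2 fold change of 0.25 ± 0.0976 (FDR 0.0431). Without N8 this became 0.30 ± 0.0858 and was called (FDR 0.00896). In NRK-49F cells it had 51.7 to 79.7 FPM at pH 7.4 and 58.2 to 84.1 FPM at pH 6.0, with a log2 fold change of 0.07 ± 0.139 (FDR 0.713).

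Dbp (ENSRNOG00000021027), the D-box activator at the output of the loop, had 66.0, 56.5, 64.7 and 69.0 FPM in NRK-52E cells at pH 7.4 and 52.5, 44.3, 42.2 and 69.1 FPM at pH 6.0. N3, N4 and N7 lay below all libraries at pH 7.4, and N8 lay at their top. In NRK-49F cells Dbp had 89.9, 105, 107 and 112 FPM at pH 7.4 and 54.0, 62.4, 73.8 and 86.2 FPM at pH 6.0, without overlap. Dbp fell in NRK-49F cells by 0.60 ± 0.133 on the log2 scale (FDR 0.00246). It was not called within the libraries numbered 21, which are 2 a group, at −0.475 ± 0.169 (FDR 0.0559). In NRK-52E cells the log2 fold change was −0.32 ± 0.159 and not called (FDR 0.0993), and without N8 it was −0.49 ± 0.106 and called (FDR 0.00151). The difference between the lines was 0.27 ± 0.215 and was not called (FDR 0.316).

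**Figure D2:**
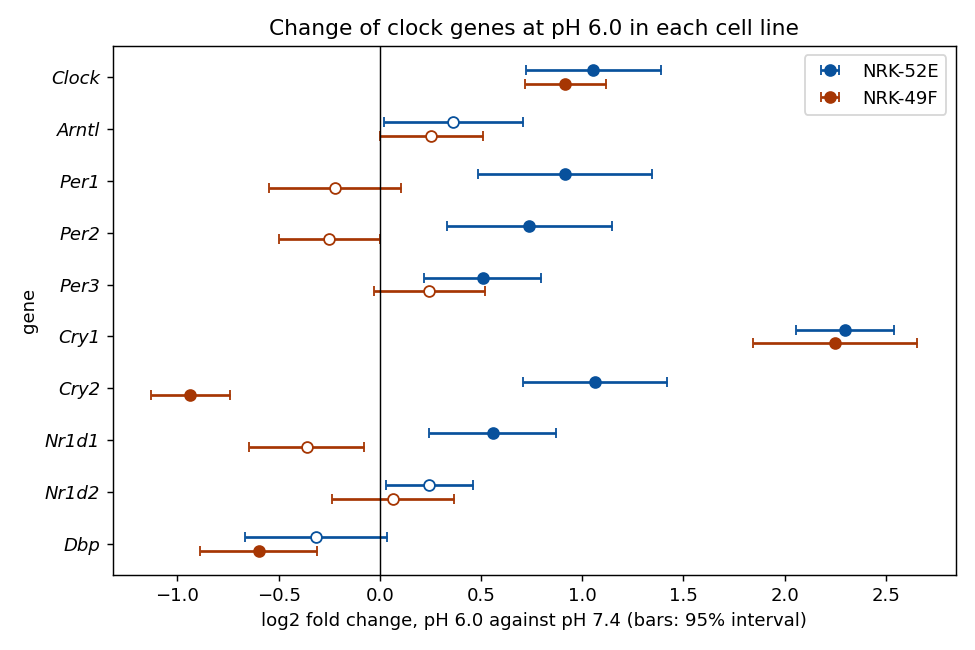
Log2 fold change of the 10 clock genes at pH 6.0 against pH 7.4 in NRK-52E (blue) and NRK-49F cells (brown), with 95% intervals from edgeR over 4 libraries a group. Filled points were called and open points were not; Cry1 is at 2.30 and 2.25, and Cry2 at 1.06 and −0.93.

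The second question is where the lines differed at the same pH. At pH 7.4, 8 of the 10 genes were called between NRK-49F and NRK-52E cells, 5 higher and 3 lower in NRK-49F, and of all 14026 genes tested 66.6% were called, 33.3% higher and 33.3% lower. Per2 was the most increased in NRK-49F, with a log2 difference of 1.27 ± 0.104 (FDR 5.33e-07), followed by Nr1d1 at 0.85 ± 0.11 (FDR 2.61e-05), Dbp at 0.61 ± 0.0921 (FDR 8.79e-05), Cry2 at 0.56 ± 0.0679 (FDR 1.41e-05) and Arntl at 0.52 ± 0.116 (FDR 0.00161). Cry1 was lower in NRK-49F cells, at −1.43 ± 0.112 (FDR 3.38e-07), Clock was at −0.72 ± 0.117 (FDR 0.000153) and Per3 at −0.45 ± 0.125 (FDR 0.00657). Per3 was no longer called when N2, N5, N6, N9, N13 or N14 was left out, or in 1 fit of all 16 libraries. Its log2 difference was then −0.46 to −0.34, with FDR of 0.0116 to 0.0252. Per1, at −0.30 ± 0.139 (FDR 0.0677), was called lower without N14. With total counts, Per1 and Nr1d2 (−0.44 ± 0.128, FDR 0.00838) were called lower and Arntl was not called, so that 9 of the 10 were called, 4 higher and 5 lower. Of all genes, 9698 were then called, 34.3% of them higher. Total counts shifted the median of all genes by −0.307, and relative to the shifted median Per1, Nr1d2 and Arntl were at −0.27, −0.10 and 0.55, close to their values with TMM.

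At pH 6.0, 5 of 10 were called, all 5 lower in NRK-49F cells, and of all 13796 genes tested 59.8% were called, 31.3% higher and 28.6% lower. Cry1 was at −1.39 ± 0.18 (FDR 2.08e-05), Per1 at −1.35 ± 0.206 (FDR 8.23e-05), Cry2 at −1.34 ± 0.173 (FDR 1.96e-05), Clock at −0.77 ± 0.135 (FDR 0.00025) and Per3 at −0.62 ± 0.138 (FDR 0.00148). Cry2 was thus higher in NRK-49F at pH 7.4 and lower at pH 6.0. Without N8 the same 5 genes were called lower, at −1.47 for Cry1, −1.53 for Per1, −1.5 for Cry2, −0.89 for Clock and −0.71 for Per3, and Dbp was called higher, at 0.60 ± 0.153 (FDR 0.00348). Of all genes, 9263 were called without N8. Arntl was called higher in 1 fit of all 16 libraries, at 0.51 (FDR 0.0029). The tests of the pH effects within the lines share libraries with these comparisons.

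The third question is whether the pH effect itself differed between the lines. Of the 10 genes, 4 were called, all 4 with a more positive effect in NRK-52E cells, namely Per1, Per2, Cry2 and Nr1d1. Over all 14679 genes tested, 36.9% were called, 19.3% more positive in NRK-52E and 17.5% more positive in NRK-49F, so that the count in either direction is close to the background. Without N8 there were also 4 calls, beside 5952 of all genes. The log2 differences were then 1.31 ± 0.2 for Per1 (FDR 3.02e-05), 1.14 ± 0.167 for Per2 (FDR 1.85e-05) and 0.99 ± 0.201 for Nr1d1 (FDR 0.000476). Without N3 there were 2 calls, beside 4649 of all genes. Per1, at 0.91 (FDR 0.0102), and Per2, at 0.80 (FDR 0.0101), then just missed the threshold. Leaving out N3 also moved the median of all genes from −0.0135 to −0.116. The share of calls that were positive moved from 52.4% to 43.3%. These values of Per1 and Per2 are not corrected for that shift. With total counts, which shifted the median of all genes by −0.234, Cry2 alone was called. Of all genes 5411 were called, against 5412 with TMM. Relative to the median shifted by total counts, the log2 differences of Per1, Per2 and Nr1d1 were 1.14, 0.99 and 0.91.

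Other genes tied to the clock were taken from 5 lists, which share a few genes such as Ciart and Usp2. Of 12 further clock transcription factors and modifiers, 9 were tested in NRK-52E cells, where 4 were called higher and 4 lower, and 10 in NRK-49F cells, where 4 were called higher and 1 lower. The counts of this and the next 4 lists stand beside the shares over all genes, 28.2% higher and 28.5% lower in NRK-52E cells and 18.4% higher and 19.4% lower in NRK-49F cells, and no list was tested as a set. The median log2 fold changes of the list were −0.11 and 0.46. Ciart, which encodes a repressor of the CLOCK and BMAL1 dimer, had 2.01, 1.35, 1.45 and 1.24 FPM in NRK-52E cells at pH 7.4 and 45.0, 25.8, 21.2 and 20.5 FPM at pH 6.0. In NRK-49F cells Ciart had 1.49, 1.77, 2.44 and 2.13 FPM at pH 7.4 and 5.84, 5.57, 6.89 and 4.94 FPM at pH 6.0. The pH groups did not overlap in either line, and N3 was the highest library. The log2 fold change was 4.19 ± 0.303 in NRK-52E cells (FDR 8.37e-07) and 1.55 ± 0.219 in NRK-49F cells (FDR 9.87e-05), and the difference was 2.63 ± 0.367 (FDR 1.36e-05). Nfil3, a repressor that competes with DBP for D-boxes, had 17.5 ± 1.02 FPM in NRK-52E cells at pH 7.4 and 80.3 ± 29.3 FPM at pH 6.0 and so rose by 2.18 ± 0.219 on the log2 scale (FDR 8.31e-06), and was at 0.32 ± 0.167 in NRK-49F cells (FDR 0.12, not called), with a difference of 1.84 ± 0.291 (FDR 4.79e-05). Arntl2, a paralogue of Arntl, fell in both lines, by 2.21 ± 0.172 on the log2 scale in NRK-52E cells (FDR 1.34e-06) and by 0.92 ± 0.169 in NRK-49F cells (FDR 0.000663). Timeless, named after the fly clock gene and known for its role in DNA replication, fell in NRK-52E cells at −1.65 ± 0.137 (FDR 2.14e-06) and rose in NRK-49F cells at 0.87 ± 0.199 (FDR 0.00301), while its partner Tipin rose in NRK-52E cells by 1.48 ± 0.128 (FDR 2.75e-06). Bhlhe40, a repressor that binds E-boxes, rose by 0.37 ± 0.0978 in NRK-52E cells (FDR 0.00567) and 0.44 ± 0.101 in NRK-49F cells (FDR 0.00317). Rorb, which encodes an activator of Arntl, was not tested, with means of at most 0.205 FPM in every group. Its relative Rora was near 0 in NRK-52E cells but present at a low level in NRK-49F cells. There it had 1.03 to 1.42 FPM at pH 7.4 and 1.69 to 2.79 FPM at pH 6.0, given as levels.

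Of 14 enzymes that act on clock proteins, 13 were in the table and tested in both lines, and 6 were called higher in NRK-52E cells and 2 in NRK-49F cells, beside 28.2% and 18.4% of all genes, with medians of 0.39 and 0.26. Gsk3b, a kinase of several clock proteins, rose in both, by 1.02 ± 0.243 (FDR 0.00333) and 0.93 ± 0.129 (FDR 8.76e-05). In NRK-52E cells, N8 had 31.4 FPM of Gsk3b and lay among the pH 7.4 libraries, at 21.6 to 34.2 FPM. N3, N4 and N7 had 68.2 to 74.2 FPM. Usp2, a deubiquitinase, rose in NRK-52E cells by 1.34 ± 0.146 (FDR 1.45e-05). Of 14 clock-controlled output genes, 12 were tested in NRK-52E cells, with 6 called higher and 4 lower, and 13 in NRK-49F cells, with 2 higher and 3 lower, where 56.7% and 37.8% of all genes were called in either direction, and the medians were 0.22 and 0.03. Nampt, which makes a precursor of NAD, rose in both, by 0.67 ± 0.0907 (FDR 7.47e-05) and 0.81 ± 0.0926 (FDR 2.13e-05). Rbm3, a cold-inducible RNA-binding protein, fell in both, at −0.88 ± 0.106 (FDR 3.04e-05) and −1.29 ± 0.12 (FDR 4.13e-06), as did Pnp, a purine nucleoside phosphorylase, at −2.04 ± 0.222 (FDR 1.47e-05) and −1.31 ± 0.106 (FDR 1.61e-06). Cdkn1a, which encodes the cell cycle inhibitor p21 and answers to many other inputs, rose in NRK-52E cells from 29.1 ± 5.04 to 1411 ± 335 FPM (log2 fold change 5.58 ± 0.212, FDR 3.23e-08). Por, a cytochrome P450 reductase, rose in NRK-52E cells by 1.57 ± 0.0896 (FDR 2.34e-07), and Tfrc, the transferrin receptor gene, fell there at −2.74 ± 0.0938 (FDR 2.05e-08).

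Of 10 clock-controlled genes of the kidney tubule, 6 were tested in each line, and 1 was called higher and 1 lower in NRK-52E cells, against 0 higher and 2 lower in NRK-49F cells, with medians of −0.20 and −0.22. Edn1, the gene of endothelin-1 that is known as a target of PER1, was lower in both lines, at −1.13 ± 0.17 (FDR 0.000155) and −2.88 ± 0.348 (FDR 3.15e-05). The sodium and water transport genes Slc9a3, Slc5a1 and Aqp2 were at or near 0 and not tested. Of 10 genes that respond to cAMP or glucocorticoids as Per1 does, 8 were tested in NRK-52E cells, with 2 called higher and 2 lower, and 9 in NRK-49F cells, with 0 higher and 2 lower, and the medians were −0.10 and −0.04. Nr4a2, an immediate early nuclear receptor, rose in NRK-52E cells by 1.54 ± 0.224 (FDR 0.000118) and fell in NRK-49F cells at −0.75 ± 0.177 (FDR 0.00365). In NRK-52E cells, Klf9 rose by 1.47 ± 0.289 (FDR 0.000954), and Tsc22d3, which is also on the output list, fell at −1.08 ± 0.168 (FDR 0.000199).

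The genes whose levels were most like those of a clock gene over the 16 libraries were found by Pearson's r of log2(FPM + 1) among 11466 genes. The libraries fall into 4 groups, so that a high r can come from a like order of groups, which was not separated from the spread within groups, and r is given as a description without a p. For Cry1 these were Ipo5 (r = 0.987) and Stard7 (r = 0.986). For Clock they were Chuk (r = 0.987) and Usp1 (r = 0.986), and for Cry2 Stat2 (r = 0.964) and Mia (r = 0.961). Per1 was most like Fam53b and Spata2, Per2 like Parp12 and Tnfaip2, Per3 like Dcp1a and Mllt10, Arntl like Gna13 and Lrrfip1, Nr1d1 like Fam214b and Npepps, and Dbp like Srd5a3 and Mylk. Nr1d2 had the lowest best match, with Rps6ka5 at r = 0.861 and Ptbp2 at r = 0.861. Within the lines, r of the 20 named pairs was 0.792 to 0.992 in NRK-52E cells and 0.549 (Per2 and Parp12) to 0.995 in NRK-49F cells.

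RefSeq promoter windows of build GRCr8, from 250 bases before to 50 bases after the start of a gene, were searched on both strands for motifs of the clock. Windows were at hand for 9 of the 10 genes, all but Cry1, with 2 windows each for Nr1d1 and Clock. The letters searched were CACGTG (E-box), CACGTT (E-prime box), TTANGTAA (D-box), TAGGTCA (the element of the REV-ERB receptors) and TGACGTCA (cAMP response element), which were chosen after the expression values had been seen. Of all 33469 windows, 6.42% held the E-box, 4.83% the E-prime box, 2.24% the D-box, 2.63% TAGGTCA and 1.83% the cAMP response element. An E-prime box was found in the windows of Cry2, Per2 and Nr1d1, a D-box in that of Per2, an E-box in the second window of Nr1d1, and TAGGTCA in that of Arntl. None of these motifs was in the windows of Clock, Per1, Per3, Nr1d2 and Dbp. Sequence outside the windows was not searched, so a gene without a match may hold these motifs elsewhere. Outside the 10 genes, the window of Ciart held 3 E-boxes and that of Nfil3 none of the 5 motifs. A match is a run of letters and not a measured binding site. The windows of Cry2, Per2 and Nr1d1 are printed because they held a motif and the pH effects on these genes differed between the lines; the effect on Per1 differed too, and its window held none, while that of Arntl held one without a called difference. The window of Ciart is printed because Ciart had the largest rise in NRK-52E cells among the listed clock transcription factors and modifiers. Capitals mark the motifs.
Cry2, chr3:98860388-98860687, minus strand: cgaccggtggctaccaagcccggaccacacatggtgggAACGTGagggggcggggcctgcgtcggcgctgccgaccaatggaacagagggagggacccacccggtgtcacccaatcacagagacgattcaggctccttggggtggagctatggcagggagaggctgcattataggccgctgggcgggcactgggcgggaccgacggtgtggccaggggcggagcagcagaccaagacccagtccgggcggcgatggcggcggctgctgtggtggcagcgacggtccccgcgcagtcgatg
Per2, chr9:99496944-99497243, minus strand: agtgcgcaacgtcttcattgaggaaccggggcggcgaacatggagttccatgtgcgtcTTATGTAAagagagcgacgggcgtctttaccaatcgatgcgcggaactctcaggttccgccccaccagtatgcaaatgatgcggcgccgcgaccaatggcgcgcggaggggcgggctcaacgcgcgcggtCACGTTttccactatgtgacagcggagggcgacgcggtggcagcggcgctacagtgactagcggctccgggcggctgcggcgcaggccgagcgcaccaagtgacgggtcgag
Nr1d1, chr10:84231763-84232062, minus strand: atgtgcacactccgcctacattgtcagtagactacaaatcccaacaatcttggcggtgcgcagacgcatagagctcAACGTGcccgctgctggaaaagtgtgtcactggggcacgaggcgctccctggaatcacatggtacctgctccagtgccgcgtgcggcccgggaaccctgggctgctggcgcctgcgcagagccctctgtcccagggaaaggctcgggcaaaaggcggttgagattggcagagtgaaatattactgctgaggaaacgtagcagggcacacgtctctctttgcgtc
Nr1d1, chr10:84229405-84229704, minus strand: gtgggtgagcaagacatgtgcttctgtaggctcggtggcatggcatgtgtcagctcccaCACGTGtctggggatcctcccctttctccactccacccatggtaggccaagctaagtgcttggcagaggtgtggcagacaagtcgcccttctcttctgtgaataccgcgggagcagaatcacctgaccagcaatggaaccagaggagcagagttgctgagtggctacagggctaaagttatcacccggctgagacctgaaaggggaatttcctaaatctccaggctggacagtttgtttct
Ciart, chr2:186112197-186112496, minus strand: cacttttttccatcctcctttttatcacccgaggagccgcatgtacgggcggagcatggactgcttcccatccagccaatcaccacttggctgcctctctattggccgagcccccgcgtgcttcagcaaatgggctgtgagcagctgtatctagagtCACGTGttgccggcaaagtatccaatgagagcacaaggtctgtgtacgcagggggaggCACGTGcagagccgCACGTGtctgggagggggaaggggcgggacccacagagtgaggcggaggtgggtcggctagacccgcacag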

How the data were processed

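Poly(A) RNA of 16 libraries was sequenced as read pairs. The authors aligned them to rat genome build rn6 and deposited raw counts of fragments per Ensembl gene from featureCounts, in which fragments that map to several places were counted at each. Their methods name tophat2 as the aligner, and the submitters' processing notes name HISAT2 2.1.0. From the counts, FPM were computed with edgeR's cpm and TMM factors over all 16 libraries. Each comparison was fitted on its own 8 libraries, and the difference of pH effects on all 16, with edgeR 4.0.16 (quasi-likelihood test, TMM, filterByExpr) and DESeq2 1.42.0 (Wald test) in R 4.3.3. P-values were adjusted by Benjamini-Hochberg over all genes tested. Log2 fold changes, SE and FDR are edgeR's, and the SE is the absolute log2 fold change over the square root of F. The fit was checked on simulated data. The members and the lists were chosen with earlier results of these data known. Genes of the lists are named where called in both lines, or with a log2 fold change of at least 1 in size and a call in either. Rora, Rorb, the untested transport genes and Thra were named after their values were seen. Of the lists, 3 genes are not reported here and are left out of the counts. Alternatives were other scalings, filters, tools and thresholds, 1 fit of all libraries, a second number in the library names as covariate or as subset, and leaving out each library. Gene lengths were not used. No library was left out. Real-time PCR, protein and monoculture data were not used here.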

Additional observations from a re-analysis of the deposited data

Results flagged for a closer look

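The pH effects of the 2 lines differed for 4 of 10 clock genes by the test of the difference itself, and for 36.9% of all genes tested. The effect in NRK-52E cells minus that in NRK-49F cells was 1.13 for Per1, 0.98 for Per2, 1.99 for Cry2 and 0.91 for Nr1d1 on the log2 scale. For Cry2, both lines' own effects were called and had opposite signs. For Per1, Per2 and Nr1d1, the effect was called in NRK-52E cells alone. With total counts Cry2 alone stayed called, beside 5411 of all genes. Without N3, Cry2 and Nr1d1 stayed called, with Per1 and Per2 at FDR 0.0102 and 0.0101, beside 4649 of all genes. Leaving out N3 also moved the median of all genes from −0.0135 to −0.116.

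Nr1d2 had 59.8 FPM in N1, an NRK-52E library at pH 7.4, while the other 3 libraries of that group had 70.1 to 71.7 FPM. This gap was the only one of its kind in 40 groups of 4 libraries, and chance alone would give about 1 in 20 groups, that is 2.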

How the results depend on the processing

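Over 940 values of single clock genes under the alternatives, 867 kept their direction and their side of the threshold, 40 lost and 14 gained a call, and 19 changed sign, none of them called under the stated settings. In NRK-52E cells, 1 clock gene (Cry1) was called within the libraries numbered 22, where 2820 of all genes were called. When each library was left out in turn, 4 to 10 were called, beside 6789 to 8914 of all genes. In NRK-49F cells, 1980 of all genes and 3 clock genes were called within number 21, and 4680 and 5 within number 20. For the difference between lines, 1 clock gene (Cry2) was called with total counts, beside 5411 of all genes. When a library was left out, 2 to 4 were called, beside 4649 to 5952 of all genes. Total counts shifted the median of all genes by −0.208 in NRK-52E cells, −0.307 and −0.148 between lines at pH 7.4 and 6.0, and −0.234 for the difference, and moved the share of called genes that were positive from 49.7% to 37.6% in NRK-52E cells, from 50% to 34.3% between lines at pH 7.4 and from 52.4% to 33.8% for the difference. Calls of Per2, Per3 and Nr1d1 in NRK-52E cells, Arntl between lines at pH 7.4, and Per1, Per2 and Nr1d1 for the difference were then lost, and calls of Dbp in NRK-52E cells and of Per1 and Nr1d2 between lines at pH 7.4, all 3 lower, were gained; relative to the shifted median these 3 were at −0.32, −0.27 and −0.10, close to −0.32, −0.30 and −0.13 with TMM. The signs that changed under total counts were those of the difference for Clock (−0.11), Arntl (−0.14), Cry1 (−0.20) and Nr1d2 (−0.073), and of Nr1d1 between lines at pH 6.0 (−0.12). Relative to the shifted median these 5 were at 0.14, 0.10, 0.046, 0.17 and 0.0014, so that the common shift turned the signs. The last was also −0.016 with DESeq2 alone and −0.024 with DESeq2's size factors, and −0.063 to 0.16 when a library was left out. When a library was left out, the difference ranged from −0.081 to 0.21 for Arntl and from −0.10 to 0.20 for Cry1. Nr1d2 in NRK-49F cells was −0.25 within number 20, 0.40 within number 21 and −0.041 to 0.16 when a library was left out. Without N3, the median of all genes for the difference was −0.116, beside −0.081 for Arntl and −0.084 for Cry1. With DESeq2's size factors, the median between lines at pH 6.0 was −0.018, beside −0.024 for Nr1d1. The subsets hold fewer libraries. Numbers 21 and 22 of NRK-52E cells, equal in size, had 6 and 1 clock genes called, beside 5244 and 2820 of all genes. Apart from the shift by total counts, the cause was not tested. No paired analysis was possible because each of the numbers N1 to N16 is used once and the second number is shared by 2 libraries a group. As a covariate, the second number left 7, 4 and 4 clock genes called in NRK-52E cells, in NRK-49F cells and for the difference, with 7551, 5211 and 5268 of all genes.

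Groups of 4 libraries limit small changes: the 95% interval of Nr1d2 in NRK-49F cells, −0.24 to 0.37, leaves room for a change in either direction. The numbered subsets of these libraries also differed in sign, with −0.25 within number 20 and 0.40 within number 21. The second number in the library names has no stated meaning. It is 21 or 22 in NRK-52E libraries and 20 or 21 in NRK-49F libraries, so that it is partly confounded with the line. It was not a covariate in the comparisons of the lines at 1 pH. Whether inserts and wells of 1 co-culture link libraries across the lines is not stated. One harvest time, RNA without protein, counts of fragments that map to several places, and counting without a stated strand option limit what the levels show.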

Other observations

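Outside the 10 clock genes, the regulators Npas2, Bhlhe41 and Hlf had a much lower level in 1 line than in the other. Npas2, a paralogue of Clock, had 2.56 ± 0.321 FPM in NRK-52E cells and 46.8 ± 2.57 FPM in NRK-49F cells at pH 7.4, and Bhlhe41, a repressor that binds E-boxes, had 0.0513 ± 0.077 and 8.96 ± 2.63 FPM. Hlf, a relative of Dbp, had 0.0165 ± 0.0329 FPM in NRK-49F cells at pH 7.4. In NRK-52E cells Hlf had 2.40 ± 0.838 FPM at pH 7.4 and 0.517 ± 0.321 FPM at pH 6.0, and fell there by 2.28 ± 0.427 on the log2 scale (FDR 0.000695, edgeR). Tef, the other relative of Dbp, fell in NRK-52E cells by 0.64 ± 0.082 (FDR 4.6e-05). The difference of Npas2, Bhlhe41 and Hlf between the lines is given as levels. Npas2, Bhlhe41 and Tef were chosen after their values were seen.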
